A study of Mus musculus with 5 samples.

Results

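The transcripts described here are those of the vacuolar proton pump (V-ATPase) and of resident proteins of the lysosomal membrane. They comprise 34 genes chosen by symbol, out of 52459 rows in the deposited table: 6 subunits of the membrane sector V0, 8 subunits of the cytosolic sector V1, 2 accessory subunits, 8 membrane glycoproteins and other membrane proteins, 5 channels and transporters, and the 5 subunits of Ragulator. Their levels were compared between AThi (autophagy-high, 2 libraries) and ATlo (autophagy-low, 3 libraries) cells. Both populations are mouse pancreatic cancer cells of the HY15549 line, on a C57BL/6 background, that carry the GFP-LC3-RFP autophagy flux reporter. They had been grown as organoids in Matrigel, made into single-cell suspensions and separated on the GFP/RFP ratio, and cells without the reporter are not analysed here. The series calls its libraries biological replicates. Whether each came from its own culture is not given, so the p-values reflect only how far these 5 libraries spread, and that spread may be technical.

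Autophagy ends in the lysosome, whose acid interior the V-ATPase maintains. The V1 sector hydrolyses ATP and turns a central rotor, and the V0 sector uses that rotation to move protons across the membrane. Glycoproteins such as LAMP1 and LAMP2 line the inner face of the membrane, channels and transporters let ions, cholesterol and breakdown products pass, and Ragulator on the outer face anchors the Rag GTPases that recruit the growth kinase complex mTORC1. Many lysosomal genes carry an E-box in the promoter (CACGTG, often within the longer CLEAR element) that the transcription factors TFEB and TFE3 can bind.

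RefSeq promoter windows (build GRCm38.p6, 250 bases before to 50 bases after the annotated start) were found for 26 of the 34 genes, 1 of them through a synonym. The E-box CACGTG, which reads the same on both strands, occurred in 10 of these 26 genes, or 38.5%. It occurred in 8.09% of the 27025 genes with a window and in 12.2% of the 8587 genes that were also tested for expression here. The longer form TCACGTGA, which contains the E-box, occurred in 6 of 26 genes, or 23.1%, against 1.12% of all genes with a window and 2.42% of the tested ones. The full CLEAR palindrome, which is TCACGTGA preceded by G and followed by C, was in 0 of the 26, and in 0.37% of all genes with a window. These are matches of letters and not measured binding sites. The windows below are stretches of at most 80 bases in 7 of the 10 genes, shown because they hold the E-boxes, which stand in capitals. Positions count from the annotated start, whose first base is +1.
Lamp1, bases -80 to -1 (chr8:13159081-13159160, plus strand): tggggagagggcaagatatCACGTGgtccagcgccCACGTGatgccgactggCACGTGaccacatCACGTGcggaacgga
Mcoln1, bases -80 to -1 (chr8:3500439-3500518, plus strand): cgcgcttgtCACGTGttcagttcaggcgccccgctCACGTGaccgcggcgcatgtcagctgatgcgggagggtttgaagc
Atp6v1a, bases -160 to -81 (chr16:44139340-44139419, minus strand): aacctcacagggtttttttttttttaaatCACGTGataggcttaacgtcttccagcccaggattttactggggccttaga
Atp6v0b, bases -80 to -1 (chr4:117887330-117887409, minus strand): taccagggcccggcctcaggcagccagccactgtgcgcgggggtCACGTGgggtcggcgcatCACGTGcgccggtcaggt
Atp6v0d1, bases -60 to +10 (chr8:105566055-105566124, minus strand): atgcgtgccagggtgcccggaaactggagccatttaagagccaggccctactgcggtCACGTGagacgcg
Atp6v0e, bases -60 to +10 (chr17:26676336-26676405, plus strand): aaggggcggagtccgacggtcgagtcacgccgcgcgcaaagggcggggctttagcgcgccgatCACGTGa
Tmem55b, bases -80 to -1 (chr14:50930850-50930929, minus strand): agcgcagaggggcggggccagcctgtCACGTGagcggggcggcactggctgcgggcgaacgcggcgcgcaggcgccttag
Lamp1 had 4 E-boxes within 61 bases of its start, Mcoln1 and Atp6v0b had 2 each in the stretch shown, and the other stretches had 1. In the RefSeq annotation the match in Atp6v0e lies just after the start and that in Atp6v0d1 spans it. The other 3 genes with an E-box were Clcn7, Lamtor1 and Lamtor4. Of the 10 genes with an E-box, 3 rose, 2 fell and 5 did not pass the test described below. Of the 16 matched genes without one, 8 rose, 1 fell and 7 did not pass. Over all genes tested, with or without a window, 22.2% rose and 29.4% fell. Whether genes with and without an E-box differ in this was not tested.

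Levels are given in deposited FPKM, which divide read fragments by transcript length and library depth. Implied depths in megareads (M), read from the smallest steps in the values, were between 27.6 M reads in AThi replicate 1 and 45.0 M reads in AThi replicate 2, with ATlo libraries between 36.0 and 42.2 M. At these depths 3 reads on a transcript of 1 kilobase are worth 0.0667 to 0.109 FPKM, a floor that covers counting error only. Keratin genes of simple epithelia (Krt8, Krt18 and Krt19) and Cdh1 were between 316 and 1842 FPKM in every library, while Epcam was at 1.51 to 3.57 FPKM and Cldn4 at 0 to 0.15 FPKM, so not every epithelial marker was high. Of the 10 epithelial markers 1 rose, 1 fell, 7 did not pass and 1 was below the filter. Sox9, a ductal transcription factor gene, rose, with 34.06 and 39.77 FPKM in AThi against 18.31, 20.41 and 15.68 FPKM in ATlo (1.01 on the log2 scale, adjusted p 0.000675), and the tight junction gene Cldn7 changed by -0.23 (adjusted p 0.0419). Summed over 7 fibroblast and over 4 endothelial markers the level was at most 0.17 and 0.08 FPKM per library. Of 14 immediate-early genes, which among other things respond to cell handling, 13 rose and 1 fell in AThi, and the summed level of the 14 was 3853 and 6049 FPKM in the AThi libraries against 1329 to 2115 FPKM in the ATlo libraries. Transcripts encoded by the mitochondrial genome made up 10.0% and 7.51% of the summed FPKM in AThi against 5.53% to 5.98% in ATlo. Sox9, Cldn7, the immediate-early genes and the mitochondrial share move with the same groups as every change given below, and their part in those changes was not tested.

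All 34 genes passed the filter of a mean of at least 1 FPKM, from Ostm1 at 1.12 to 1.52 FPKM up to Lamp1 at 312 to 380 FPKM. AThi was compared with ATlo in a limma fit over the 11397 genes that passed it, on log2(FPKM + 0.5), at a Benjamini-Hochberg adjusted p under 0.05. Fold changes are on that log2 scale, AThi minus ATlo, with the standard error (SE) of the fit, and understate the change of low genes. In all 13 of the 34 genes rose, 5 fell and 16 did not pass. The rises included 5 of 8 membrane glycoproteins and other membrane proteins and both accessory subunits, and the falls 3 of 5 Ragulator subunits, while 9 of 14 V0 and V1 subunits did not pass. Over all genes tested 51.6% passed, 22.2% higher and 29.4% lower in AThi. With 52.9% passing, the 34 genes were close to that background, and 38.2% of them passed as higher and 14.7% as lower. Their median log2 fold change was 0.16, against -0.03 over all genes tested, and the median size of the 18 changes that passed was 0.30, against 0.48 over all genes that passed. The library values of AThi and ATlo did not overlap in 27 of the 34 genes (79.4%), 21 of them with AThi above, where 70.3% of all genes tested do not overlap. Since RNA was taken from whole sorted populations, fewer cells with a transcript and less of it per cell cannot be told apart.

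**Figure D1:**
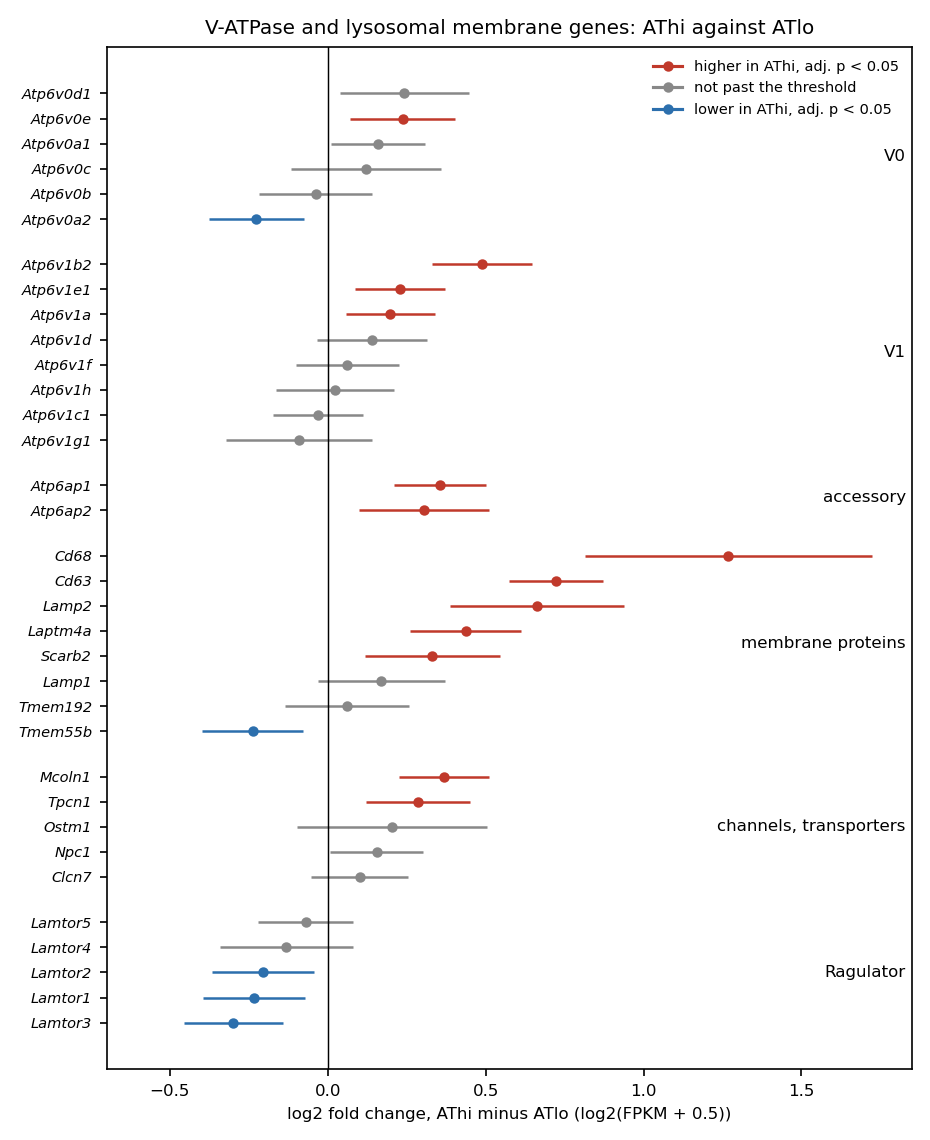
Log2 fold change of the 34 genes, AThi minus ATlo, on log2(FPKM + 0.5), by group of genes; points are limma estimates and bars their 95% confidence intervals, red where higher in AThi and blue where lower at an adjusted p under 0.05, grey otherwise. Cd68 lies farthest to the right at 1.27, all 5 Ragulator genes lie left of 0, and most V0 and V1 subunits lie within 0.25 of 0.

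Without AThi replicate 1 the counts were 7 rises and 2 falls, without AThi replicate 2 they were 10 and 1, without ATlo replicate 1 they were 14 and 3, without ATlo replicate 2 they were 8 and 1, and without ATlo replicate 3 they were 9 and 3. The shares over all genes tested were smaller in these fits as well: 15% to 21.6% passed as higher and 22.8% to 28.5% as lower. The 7 genes Atp6v1b2, Atp6ap1, Lamp2, Cd63, Cd68, Laptm4a and Mcoln1 kept their rise with each library left out in turn and in every other alternative fit. None of the 5 falls kept its call with each library left out.

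**Figure D2:**
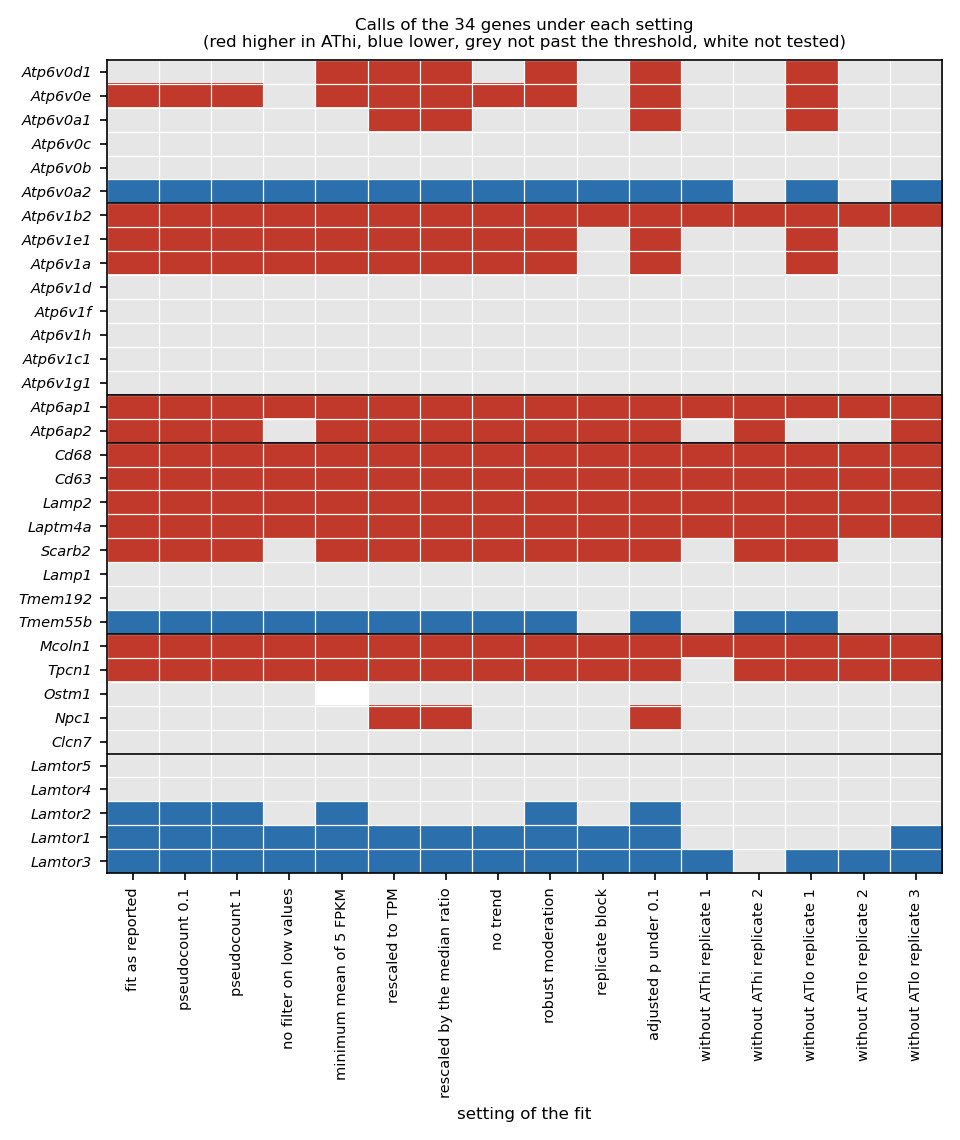
Calls of the 34 genes (rows, in the order of the plot of fold changes) in the fit as reported and in 15 alternative fits (columns); red is higher in AThi, blue lower, grey not past the threshold and white not tested. The 7 rows red throughout are Atp6v1b2, Atp6ap1, Cd68, Cd63, Lamp2, Laptm4a and Mcoln1, and no blue row is complete.

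In the V0 sector, 1 of 6 subunits rose, 1 fell and 4 did not pass; the median log2 fold change was 0.14. Summed over the 6 genes the level was 213 and 219 FPKM in AThi against 207, 199 and 191 FPKM in ATlo. Atp6v0d1, which joins the proton ring to the rotor, had the highest mean over the 5 libraries, at 64 and 60.14 FPKM in AThi against 57.51, 51.74 and 48.26 FPKM in ATlo, where Atp6v0b was higher in 2 of 3 libraries. Its AThi values lay above all ATlo values, and its change of 0.24 ± 0.09 (SE) had an adjusted p of 0.0510, just outside the threshold. It passed under 6 of the 15 alternative settings, and over all of them its adjusted p was between 0.0157 and 0.208. Atp6v0e, a small membrane subunit, rose by 0.24 ± 0.07 (SE), with 34.19 and 35.54 FPKM in AThi against 31.47, 29.1 and 27.99 FPKM in ATlo and an adjusted p of 0.0268. That call was lost without the filter on low values and without each of AThi replicates 1 and 2 and ATlo replicates 2 and 3, where the adjusted p reached 0.122.

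The a subunit, which forms the proton path and decides the membrane a pump is sent to, is encoded by alternative genes. Atp6v0a2, whose product is found mainly in the Golgi and endosomes, fell to 11.72 and 10.86 FPKM in AThi, against 13.43, 13.27 and 13.16 FPKM in ATlo, by 0.23 on the log2 scale (SE 0.06, adjusted p 0.0217). The 3 ATlo values lay close together and above both AThi values, and the call was lost without AThi replicate 2 (adjusted p 0.118) and without ATlo replicate 2 (0.0739), in a range of 0.0184 to 0.118 over all fits. Of its exon bases 9.9% lie in a gene on the opposite strand, and whether reads were assigned by strand is not given. Atp6v0a1 was at 46.49 and 48.13 FPKM in AThi against 44.23, 41.95 and 40.88 FPKM in ATlo, without overlap, and its change was 0.16 ± 0.06 (SE), at an adjusted p of 0.0725. It passed when values were rescaled to TPM (0.0292) or by the median ratio (0.0396), without ATlo replicate 1 (0.0457), and at the looser threshold of 0.1.

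The proton ring is built from the proteolipids c and c'', encoded by Atp6v0c and Atp6v0b. Atp6v0b was at 50.79 and 58.39 FPKM in AThi and 55.87, 57.22 and 54.76 FPKM in ATlo, with overlapping groups and a log2 difference whose 95% interval ran from -0.22 to 0.14. A gene on the opposite strand, Gm12841, covers 11.8% of the Atp6v0b exon bases. Atp6v0c was listed at only 5.54 and 6.11 FPKM in AThi and 4.75, 5.39 and 5.85 FPKM in ATlo, with an interval of -0.12 to 0.36. Of its longest coding transcript 39.5% has a copy of at least 95% identity at another annotated gene, so its level is uncertain and can be too low. For both, changes larger than the bounds given are outside the intervals, and smaller ones were not detected but are not excluded.

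In the V1 sector, 3 of 8 subunits rose, 0 fell and 5 did not pass; the median log2 fold change was 0.10. At an unadjusted p under 0.05 in the same limma fit, the number of V1 genes lower in AThi was also 0. Summed over the 8 genes the level was 226 and 219 FPKM in AThi against 205, 203 and 199 FPKM in ATlo. Atp6v1b2, which encodes the B subunit of the ATP-hydrolysing ring, rose most, with 35.57 and 36.04 FPKM in AThi against 26.94, 24.88 and 24.36 FPKM in ATlo. This was a change of 0.49 ± 0.07 (SE) with an adjusted p of 0.00114, and it was between 0.46 and 0.53 in every alternative fit. The gene lies on chromosome 8 of GRCm38 (69088646 to 69113711, plus strand). Atp6v1a, the catalytic A subunit that pairs with B in the same ring, rose less, by 0.20 ± 0.06 (SE), with 31.17 and 29.83 FPKM in AThi against 27.13, 25.84 and 26.62 FPKM in ATlo (adjusted p 0.0289). Atp6v1e1, of the peripheral stalks, rose by 0.23 ± 0.06 (SE), with 28.69 and 28.36 FPKM in AThi against 25.28, 23.84 and 23.73 FPKM in ATlo (adjusted p 0.0175). The calls of Atp6v1a and Atp6v1e1 were lost without each library but ATlo replicate 1, with adjusted p-values of up to 0.125 and 0.0761, while that of Atp6v1b2 was kept in every fit.

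The other V1 genes did not pass. Atp6v1f, a rotor subunit and the most abundant of the sector, was at 54.98 and 55.91 FPKM in AThi against 54.89, 54.8 and 49.73 FPKM in ATlo, with an interval of -0.10 to 0.22 on the log2 scale. Atp6v1c1, a subunit known from yeast to control the joining of both sectors, was at 31 and 29.47 FPKM in AThi and 30.69, 31.67 and 30.29 FPKM in ATlo, with an interval of -0.17 to 0.11. The rotor subunit gene Atp6v1d had a change of 0.14 ± 0.07 (SE, adjusted p 0.151), with an interval of -0.03 to 0.32. The stalk subunit gene Atp6v1g1 had one of -0.09 ± 0.10 (SE), with an interval of -0.32 to 0.14. The regulatory subunit gene Atp6v1h had one of 0.02 ± 0.08 (SE), with an interval of -0.16 to 0.21. Copies at other genes cover 25.1% of the Atp6v1f and 31.5% of the Atp6v1g1 transcript, so these values are uncertain. The A and B subunits stand in equal numbers in the ring; whether their changes of 0.20 and 0.49 differ was not tested.

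**Figure D3:**
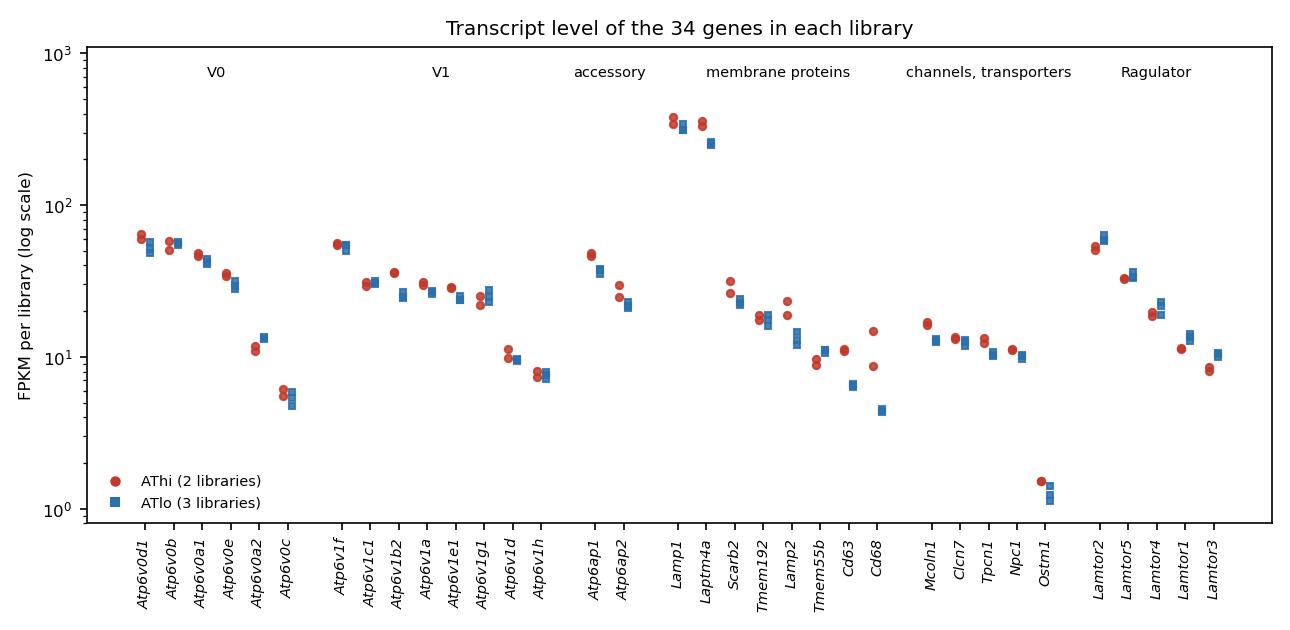
FPKM of the 34 genes in each library on a log axis, ordered by mean level within each group of genes; red circles are the 2 AThi and blue squares the 3 ATlo libraries. Lamp1 and Laptm4a are the highest in every library, most V0 and V1 subunits lie between 20 and 64 FPKM, and the groups are furthest apart in Cd68, Cd63 and Lamp2.

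For 7 subunits the genome holds alternative genes, of which the rest were taken as a second list of 9 genes. Of these, 3 passed the filter, and 0 rose, 1 fell and 2 did not pass (limma, also 0 higher at an unadjusted p under 0.05). For each of subunits d, e, B, C, E and G, 1 gene held at least 94.7% of the FPKM of that subunit in every library. For subunit a, which is shared among several genes, Atp6v0a1 held 54.9 ± 0.51% in AThi (SD, n = 2) and 51.5 ± 1.51% in ATlo (SD, n = 3). Atp6v0a2 held 13.1 ± 1.15% in AThi (SD, n = 2) and 16.1 ± 0.06% in ATlo (SD, n = 3). Tcirg1, the a3 gene, which serves lysosomes and the acid-secreting membrane of osteoclasts, held 31.9 ± 1.67% in AThi (SD, n = 2) and 32.4 ± 1.5% in ATlo (SD, n = 3). Tcirg1 itself differed by 0.04 ± 0.07 on the log2 scale (SE, adjusted p 0.643). Atp6v1c2, the minor C gene, fell to 0.58 and 0.72 FPKM in AThi, against 1.47, 1.28 and 1.15 FPKM in ATlo (-0.65 ± 0.15, SE, adjusted p 0.0102), a call that was lost without AThi replicate 1. Its mean over the 5 libraries was 1.04 FPKM, so it passed the filter of 1 FPKM only through its ATlo values. In the limma fit with no filter on low values the call was kept (adjusted p 0.0325). The kidney- and epididymis-associated genes Atp6v0a4 and Atp6v1b1 were at no more than 0.03 FPKM in any library, and Atp6v1e2 and Atp6v1g3 were listed at 0 in all 5. Atp6v0d2, known from osteoclasts and macrophages, was below the filter, at 0.19 and 0.76 FPKM in AThi and 0.09, 0.11 and 0.08 FPKM in ATlo.

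**Figure D4:**
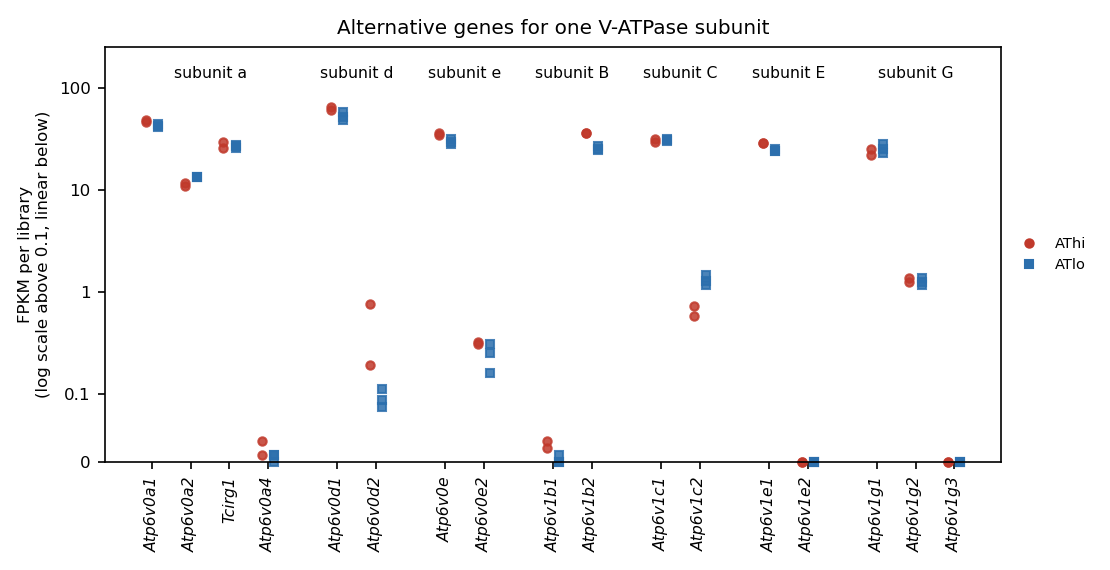
FPKM in each library of the alternative genes for 7 V-ATPase subunits, on an axis that is logarithmic above 0.1 and linear below; red circles are AThi and blue squares ATlo libraries. Apart from subunit a, 1 gene dominates each subunit in both populations, and Atp6v1c2 lies lower in both AThi libraries than in any ATlo library.

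Both accessory subunits rose. Atp6ap1 (Ac45), which takes part in the assembly of the pump, was at 48.07 and 46.4 FPKM in AThi against 37.63, 37.53 and 35.4 FPKM in ATlo, a change of 0.35 ± 0.06 (SE) with an adjusted p of 0.00319. Atp6ap2, also known as the prorenin receptor, was at 29.58 and 24.89 FPKM in AThi against 21.69, 21.09 and 22.94 FPKM in ATlo, a change of 0.30 ± 0.09 (SE) with an adjusted p of 0.0238. The groups did not overlap for either gene, but the AThi libraries differed for Atp6ap2, whose change was 0.18 without AThi replicate 1 and 0.43 without AThi replicate 2. Without AThi replicate 1, ATlo replicate 1 or ATlo replicate 2, and with no filter, its call was lost, with adjusted p-values of up to 0.130. A copy covers 18.8% of its transcript.

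Genes for the assembly of the pump, or for proteins that associate with it, formed a list of 14, of which 11 passed the filter. Among the 11, 3 rose, 1 fell and 7 did not pass; their median was 0.16. Oxr1, of the TLDc-domain family that binds V-ATPases, rose by 0.46 ± 0.06 (SE), with 37.22 and 37.14 FPKM in AThi against 26.88, 27.51 and 26.4 FPKM in ATlo (adjusted p 0.000796). Of the same family, Ncoa7 differed by -0.21 ± 0.08 (SE, adjusted p 0.0621) and Tldc1 by 0.08 ± 0.12 (SE, adjusted p 0.602). Tldc2 was below the filter, and these other family genes were named after their values were seen. Rogdi, a subunit of the complex that joins V1 to V0, rose by 0.29 ± 0.07 (SE), and the membrane protein gene Tmem9 by 0.26 ± 0.06 (SE). Tmem9b, also named after its values were seen, differed by -0.16 ± 0.06 (SE, adjusted p 0.0502). Tmem199, an assembly factor of the secretory pathway, changed by -0.32 ± 0.06 (SE), with 16.34 and 17.65 FPKM in AThi against 21.97, 21.16 and 21 FPKM in ATlo (adjusted p 0.00545). Its partner Ccdc115, chosen after its values were seen, differed by 0.16 ± 0.06 (SE, adjusted p 0.0538). The calls of Oxr1 and Tmem199 were kept in every fit; that of Rogdi was lost without AThi replicate 1, AThi replicate 2 or ATlo replicate 2 (adjusted p of up to 0.0766) and that of Tmem9 without AThi replicate 1 or 2 (up to 0.0582).

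Among the 8 glycoproteins and other membrane proteins, 5 rose, 1 fell and 2 did not pass; the median log2 fold change was 0.38. Lamp1 and Laptm4a were the most abundant of all 34 genes. Lamp1, which encodes the major glycoprotein of the membrane, was at 380 and 343.44 FPKM in AThi against 340.7, 311.83 and 311.64 FPKM in ATlo. Its groups did not overlap, but they came within 3 FPKM of each other, and the change of 0.17 ± 0.09 (SE) had an adjusted p of 0.135. Lamp2, which encodes the relative of LAMP1 needed for the fusion of autophagosomes with lysosomes and for chaperone-mediated autophagy, rose by 0.66 ± 0.12 (SE). It was at 23.3 and 18.85 FPKM in AThi against 12.85, 11.89 and 14.57 FPKM in ATlo (adjusted p 0.00334), and lies on chromosome X (38401357 to 38456454, minus strand). Laptm4a, a small membrane-spanning protein gene on chromosome 12 (8921664 to 8938742, plus strand), rose by 0.44 ± 0.07 (SE), with 355.79 and 330.73 FPKM in AThi against 260.95, 247.04 and 251.97 FPKM in ATlo and an adjusted p of 0.00289. Lamp1 did not pass in any of the 15 alternative fits, whereas Lamp2 and Laptm4a passed in all of them.

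Cd63, which encodes a tetraspanin of late endosomes and exosomes, rose by 0.72 ± 0.06 (SE), with 11.2 and 10.92 FPKM in AThi against 6.36, 6.65 and 6.51 FPKM in ATlo. Replicates lay close together, and its adjusted p of 0.000212 was the smallest of the 34 genes. The level itself is uncertain, since 73.2% of its transcript has a copy in Cd63-ps, whose own row held 0.33 to 1.08 FPKM. Scarb2, which encodes LIMP-2, the carrier of glucocerebrosidase to the lysosome, rose by 0.33 ± 0.09 (SE), with 31.75 and 26.44 FPKM in AThi against 24.12, 22.68 and 22.04 FPKM in ATlo (adjusted p 0.0197). Its change was 0.20 without AThi replicate 1 and 0.46 without AThi replicate 2, and its call was lost without AThi replicate 1, ATlo replicate 2 or ATlo replicate 3 and with no filter (adjusted p of up to 0.106). Tmem55b, which couples lysosomes to dynein for transport to the cell centre, changed by -0.24 ± 0.07 (SE), with 8.84 and 9.62 FPKM in AThi against 11.12, 10.65 and 11.13 FPKM in ATlo (adjusted p 0.0228). Without AThi replicate 1, ATlo replicate 2 or ATlo replicate 3 that call was lost (adjusted p of up to 0.122). Of its exon bases 19.5% lie in Apex1 on the opposite strand. Tmem192, another lysosomal membrane protein gene, was at 18.96 and 17.55 FPKM in AThi and 18.83, 17.57 and 16.06 FPKM in ATlo, with overlapping groups and an interval of -0.13 to 0.26.

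Cd68, which encodes the heavily glycosylated LAMP-family protein macrosialin, had the largest change of the 34 genes. It was at 8.68 and 14.74 FPKM in AThi against 4.38, 4.31 and 4.55 FPKM in ATlo, a log2 fold change of 1.27 ± 0.19 (SE) with an adjusted p of 0.00178. The 3 ATlo values lay close together and the AThi values far apart, AThi replicate 2 being the higher. Without AThi replicate 2 the change was 0.90 (adjusted p 0.00232) and without AThi replicate 1 it was 1.63 (0.000710), in a range of 0.000137 to 0.0159 over all fits. The gene is short and lies on chromosome 11 (69664213 to 69666153, minus strand), and its values correspond to between 195 and 833 implied reads per library. Cd68 is also a marker of macrophages. Of 12 other macrophage markers 11 were at no more than 0.06 FPKM in every library, and Adgre1, C1qa, C1qb and C1qc were listed at 0 in all 5. The exception was Mrc1, the mannose receptor gene, at 3.73 and 4.64 FPKM in AThi against 9.72, 11.93 and 13.45 FPKM in ATlo, lower in AThi where Cd68 was higher. The summed level of the 12 markers, nearly all of it Mrc1, was 3.84 and 4.74 FPKM in AThi against 9.84 to 13.6 FPKM in ATlo. The summed immediate-early level was also highest in AThi replicate 2, and its part in its value was not tested.

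**Figure D5:**
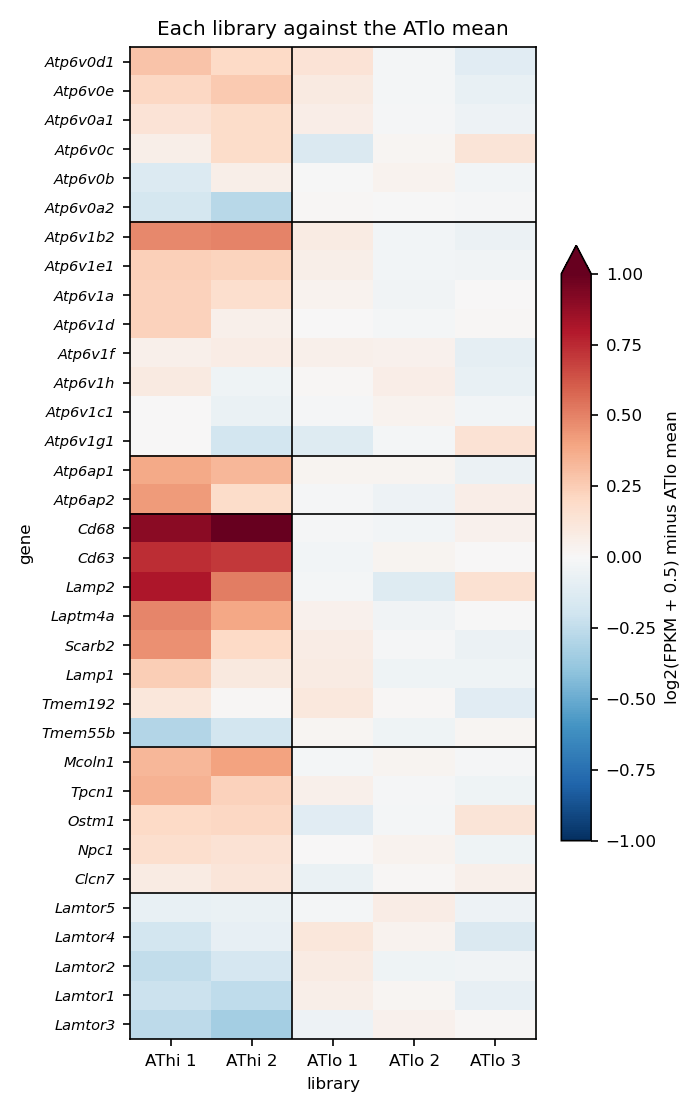
Log2(FPKM + 0.5) of the 34 genes in each library, minus the mean of the ATlo libraries, on a colour scale from -1 (blue) to 1 (red, with higher values in the darkest red); rows are grouped as in the plot of fold changes, with the 2 AThi libraries left of the 3 ATlo libraries. Cd68 exceeds the scale in AThi replicate 2, Lamp2 and Scarb2 are redder in AThi replicate 1, and the Ragulator rows are blue in both AThi libraries.

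Of a list of 10 further lysosomal membrane protein genes, 7 passed the filter, and 2 rose, 0 fell and 5 did not pass. At an unadjusted p under 0.05 in the same limma fit the count of falls was also 0. Laptm4b, the paralog of Laptm4a, rose by 0.74 ± 0.08 (SE), with 59.54 and 53.86 FPKM in AThi against 34.83, 31.63 and 34.52 FPKM in ATlo (adjusted p 0.000357). Tmem55a, the paralog of Tmem55b, rose by 0.25 ± 0.08 (SE, adjusted p 0.0312), where Tmem55b fell. The call of Laptm4b was kept in every fit, and that of Tmem55a was lost with no filter and without each library but ATlo replicate 3 (adjusted p of up to 0.118).

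Of the 5 channel and transporter genes 2 rose, 0 fell (limma, also 0 at an unadjusted p under 0.05) and 3 did not pass. All 5 had AThi values above all ATlo values, where the groups do not overlap, in either direction, in 70.3% of all genes tested. Mcoln1, which encodes the lysosomal calcium channel TRPML1, was at 16.24 and 17.09 FPKM in AThi against 12.61, 13.06 and 12.72 FPKM in ATlo. This was a change of 0.37 ± 0.06 (SE) with an adjusted p of 0.00262, between 0.33 and 0.41 in every fit. Tpcn1, which encodes the endolysosomal cation channel TPC1, rose by 0.29 ± 0.07 (SE), with 13.36 and 12.26 FPKM in AThi against 10.82, 10.29 and 10.11 FPKM in ATlo (adjusted p 0.0124). Without AThi replicate 1 its call was lost (adjusted p 0.0757, the highest over all fits, with 0.00644 the lowest). Clcn7, the chloride-proton exchanger gene, was at 13.18 and 13.55 FPKM in AThi against 11.86, 12.53 and 12.92 FPKM in ATlo (0.10 ± 0.07, SE, adjusted p 0.232). Its obligate partner gene Ostm1 was at 1.51 and 1.52 FPKM in AThi against 1.12, 1.23 and 1.41 FPKM in ATlo (0.20 ± 0.13, SE, adjusted p 0.217), on 300 to 493 implied reads. Npc1, whose product moves cholesterol out of the lysosome, was at 11.32 and 11.12 FPKM in AThi against 10.07, 10.31 and 9.71 FPKM in ATlo, and its change of 0.15 ± 0.06 (SE) had an adjusted p of 0.0742. It passed when values were rescaled to TPM or by the median ratio, and at the looser threshold of 0.1.

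Of 23 other lysosomal channel and transporter genes 20 passed the filter, and 7 rose, 3 fell and 10 did not pass; the median log2 fold change was 0.19. Ctns, which encodes the cystine exporter cystinosin, rose most, by 0.84 ± 0.08 (SE), with 8.49 and 8.28 FPKM in AThi against 4.83, 4.24 and 4.37 FPKM in ATlo (adjusted p 0.000280). The other 6 rises were between 0.19 and 0.46. The smallest, that of Clcn3, lost its call without any 1 library. It was also lost with no trend in the moderation and with the replicate number of the titles as a block. Slc17a5 and Mfsd12 lost their calls without AThi replicate 1 and Sidt2 without AThi replicate 2. Tmem175 and Lmbrd1 kept theirs in every fit that tested them. These genes were named after their values were seen. Abcd4, needed for the release of vitamin B12 from lysosomes, changed by -0.55 ± 0.08 (SE), with 4.13 and 4.63 FPKM in AThi against 6.39, 6.92 and 6.62 FPKM in ATlo (adjusted p 0.00147). Its partner in that step, Lmbrd1, chosen after its values were seen, rose by 0.46 ± 0.07 (SE, adjusted p 0.00145), so the members of this pair moved in opposite directions. Clcn6, a chloride-proton exchanger gene of late endosomes, changed by -0.50 ± 0.11 (SE, adjusted p 0.00932) and the endosomal iron transporter gene Slc11a2 by -0.48 ± 0.09 (SE, adjusted p 0.00366). The call of Clcn6 was lost without AThi replicate 1 (adjusted p 0.0647).

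Of the 5 Ragulator genes 3 fell, 0 rose (limma, also 0 at an unadjusted p under 0.05) and 2 did not pass. Falls were also the more common direction over all genes tested, with 29.4% lower and 22.2% higher in AThi. All 5 Ragulator genes had a negative estimate in every fit, and their median was -0.20. Summed over the 5 genes the level was 121.8 and 125.4 FPKM in AThi against 144, 140.2 and 134 FPKM in ATlo. Lamtor3, which forms with LAMTOR2 a scaffold for MAP kinase signalling on late endosomes, fell to 8.53 and 8.07 FPKM in AThi, against 9.92, 10.65 and 10.4 FPKM in ATlo, by 0.30 on the log2 scale (SE 0.07, adjusted p 0.00900). Lamtor1, whose lipid anchor holds the complex on the membrane, fell to 11.51 and 11.19 FPKM in AThi, against 14.05, 13.6 and 12.7 FPKM in ATlo, by 0.23 on the log2 scale (SE 0.07, adjusted p 0.0250). Lamtor2, the most abundant subunit gene, was at 50.67 and 53.45 FPKM in AThi against 63.45, 58.24 and 58.6 FPKM in ATlo (-0.20 ± 0.07, SE, adjusted p 0.0400). In mean FPKM the 3 genes stood in AThi at 0.804 to 0.866 times their ATlo level. The call of Lamtor3 was lost without AThi replicate 2 (adjusted p 0.0568), that of Lamtor1 without each library but ATlo replicate 3 (up to 0.109), and that of Lamtor2 without any 1 library and under 5 other settings (up to 0.168). Lamtor4 was at 18.52 and 19.87 FPKM in AThi and 22.83, 21.53 and 18.98 FPKM in ATlo, with overlapping groups, and Lamtor5 had a change of -0.07 ± 0.06 (SE) with an interval of -0.22 to 0.08. Copies at other genes cover between 29.0% and 43.4% of the Lamtor1, Lamtor3 and Lamtor5 transcripts, and 18.7% of the Lamtor1 exon bases lie in Lrrc51 on the opposite strand, so these values are uncertain.

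Ragulator binds BORC, a complex that with the small GTPase ARL8 moves lysosomes along microtubules. Of 12 genes of BORC, ARL8 and its partners 11 passed the filter, and 2 rose, 1 fell and 8 did not pass; their median was 0.09. Arl8a rose by 0.29 ± 0.07 (SE), with 37.66 and 34.49 FPKM in AThi against 31.27, 28.64 and 28.58 FPKM in ATlo (adjusted p 0.0149). The BORC subunit gene Kxd1 rose by 0.24 ± 0.08 (SE, adjusted p 0.0355), and Bloc1s2, a subunit that BORC shares with the lysosome biogenesis complex BLOC1, changed by -0.39 ± 0.08 (SE, adjusted p 0.00761). The call of Arl8a was lost without AThi replicate 1 or ATlo replicate 2 (adjusted p of up to 0.0886) and that of Bloc1s2 without AThi replicate 2 (0.0545). That of Kxd1 was lost without AThi replicate 2, ATlo replicate 2 or ATlo replicate 3, with no filter and with no trend in the moderation. It was also lost with the replicate number of the titles as a block, and the Kxd1 change was 0.16 without AThi replicate 2. Over the 5 lists of other genes together, 14 of 52 tested genes rose, 6 fell and 32 did not pass, so 38.5% passed where 51.6% of all genes did. Without AThi replicate 1 they numbered 7 rises, and without ATlo replicate 2 they numbered 9.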

How the data were processed

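Messenger RNA was measured in 5 libraries of sorted cells. The authors deposited FPKM, rounded to 2 decimals, as a single table. Per the submitters' processing notes, mm10/GRCm38 was used with featureCounts, STAR, bcl2fastq and DESeq2, no versions given. The annotation, the strand setting, the treatment of multi-mapping reads and the FPKM formula are not given. Columns were matched to libraries by the codes in the sample titles, and 0 columns were left unused. FPKM are relative within a library, so a change in total RNA per cell cannot be seen in them.

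On log2(FPKM + 0.5), all 11397 genes whose mean reached 1 FPKM entered limma 3.58.1 (R 4.3.3; lmFit, then eBayes with trend; group as the only term; two-sided; Benjamini-Hochberg adjustment). The fit had 3 residual and 3.89 prior degrees of freedom. The procedure was tested on simulated data with independent noise, few changed genes and changes larger than most of those given here. Its recovery of changes of the size seen here was therefore not examined. All 34 genes are named; of each of the 5 lists of other genes the called ones with the largest changes are named, at most 4, the alternative subunit genes are named beyond this for their levels and shares, called or not, and genes chosen after their values were seen are marked. The genes, lists and tests were chosen with earlier results of these data known.

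Depth was implied from single-exon genes of at most 200 bases, in which 99.7% to 100% of 356 to 454 values per library were whole multiples of 1 read (tolerance 0.1). Coordinates (1-based), exon lengths and overlaps came from GENCODE M21 (GRCm38), where 33 symbols matched directly and Tmem55b through a synonym. Copies were searched with BLAST 2.17.0 (95% identity, at least 100 bases) in the annotated transcripts.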

Additional observations from a re-analysis of the deposited data

How the results depend on the processing

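Alternatives were other pseudocounts, filters, scalings, moderations and thresholds, a replicate block and leaving out each library; where 1 AThi library remained, it was assumed to vary like the others. No gene of the 34 or of the lists reversed a call. With a minimum mean of 5 FPKM, 1683 genes were higher, against 2529, over fewer genes tested. At an adjusted p under 0.1, 22 list genes were higher, against 14. With each library left out in turn, 7 to 14 of the 34 genes were higher and 1 to 3 lower, and 7 to 15 list genes were higher and 4 to 6 lower; the cause was not tested, beyond there being fewer libraries. Under TPM or median-ratio scaling 16 of the 34 were higher and 4 lower, and the median of all genes was 0.01 and 0.00, against -0.03. The titles number the libraries, and the same-numbered AThi and ATlo libraries 1 and 2 share the first part of a code in the titles, but no label says that number or code marks a shared culture or day. Deviations from the group means correlated at 0.20 and 0.30 across genes for the same-numbered libraries 1 and 2. With 2 AThi libraries their deviations are exact opposites, so these 2 values are not independent signs of pairing. With this number as a replicate block 10 of the 34 genes were higher and 3 lower, against 13 and 5. Atp6v0e, Atp6v1a, Atp6v1e1, Tmem55b and Lamtor2 lost their calls, at adjusted p-values of 0.0522 to 0.0733. Of the list genes, Clcn3 and Kxd1 lost theirs in the same fit, at adjusted p-values of 0.0542 and 0.0791. Over the single genes and all settings, 77 values lost and 49 gained a call without changing direction. Depth limits the least abundant genes: 3 reads are worth up to 0.109 FPKM per kilobase.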

Other observations

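A pair of list genes stood below the filter in a position that bears on counting. Rnasek, which encodes a small membrane protein that associates with the V-ATPase, was listed at 0.06 to 0.44 FPKM, and 67.7% of its exon bases lie in another annotated gene on the same strand, Gm21988. Bloc1s1, a BORC subunit gene, was listed at 0.51 to 0.82 FPKM, and 55.9% of its exon bases lie in Rdh5 on the same strand. How reads in shared exons were assigned is not given in the sources used here, and it was not tested. Both genes were singled out after their values were seen.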
